A study of Mus musculus with 6 samples.

Results

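Interferon response and MHC class I genes were examined in RNA-seq of cultured cerebellar granule cells (GCs) after knockdown (KD) of Ythdf2. The 33 genes were listed by name and matched to the gene identifiers of the deposited table, which holds 53421 genes. They comprise 8 genes of the MHC class I pathway, 5 transcription factors of interferon signalling, 17 interferon-induced effectors and 3 sensors of foreign RNA. GCs came from the cerebella of wildtype C57BL/6 pups, at postnatal day 8 by the labels, and were grown as a dissociated culture that also holds other cerebellar cells. Every culture received a lentiviral short hairpin RNA and was selected with puromycin. The hairpin was directed against Ythdf2 in 3 libraries (shYthdf2, 1 hairpin sequence, number 3 of the study) and was a control in the other 3 (shCtrl). Lentiviral infection and selection are therefore shared by both groups, and a culture without virus was not analysed here. The libraries of each group carry the replicate numbers 1, 2 and 4.

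YTHDF2 is a cytoplasmic reader of N6-methyladenosine (m6A), a methyl mark inside mRNAs, and directs marked mRNAs to decay. In the type I interferon response, sensors of foreign RNA such as RIG-I and MDA5 lead to the activation of IRF3 and IRF7, which switch on interferon genes. Secreted interferon then acts through its receptor and the kinases JAK1 and TYK2 to form a complex with STAT2 and IRF9 that binds interferon-stimulated response elements in promoters. MHC class I molecules carry peptides of the cell's own proteins to the surface. Immunoproteasome subunits cut these peptides, TAP carries them into the endoplasmic reticulum, tapasin helps to load them, and a heavy chain pairs with beta-2-microglobulin to present them. Neurons are known for low levels of class I molecules compared with immune and vascular cells.

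Sample titles and library names assign the groups in opposite ways. The names were followed here, and if the titles were right every direction below would be inverted. Ythdf2, the targeted gene, had 618, 841 and 628 normalized counts in shCtrl replicates 1, 2 and 4, and 501, 402 and 501 in shYthdf2. It was lower in every library named for the knockdown, with 67.3% of the shCtrl mean (log2 fold change -0.57, SE 0.16, adjusted p = 0.125). A two-sided exact permutation test of the 3 against 3 libraries gave p = 0.1, the smallest value that this design allows.

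The libraries held 17246821 to 21546595 counts. Replicate 2 stood apart from replicates 1 and 4 in both groups. The chi-square per gene, which is near 1 when 2 libraries differ by counting error alone, was 4.68 between replicates 1 and 4 of shCtrl and 3.34 between those of shYthdf2. It was 33.1 to 55.3 between replicate 2 and the other libraries of its own group. Between shCtrl replicate 2 and shYthdf2 replicate 2 it was 22.7, so these libraries lay closer to each other than to their own groups. Between replicates 1 and 4 of shCtrl and those of shYthdf2 it was 44.0 to 52.6. What sets replicate 2 apart is not given in the sources used here, so the genes below are also described pair by pair and without these libraries. Of the 17214 genes that passed the filter on low counts, 104 had an adjusted p under 0.05 (0.604%), and 62 of these were lower in shYthdf2 (0.36%) and 42 higher (0.244%). Scaled by library size alone, the split was 47 lower and 61 higher. These p-values measure the spread between the libraries of a group. The paper's methods call them biological replicates, while the labels do not say which cultures they came from.

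Among the interferon response and MHC class I genes, 32 of 33 passed the filter and 1 of the 32 passed the adjusted threshold, H2-D1, a classical MHC class I heavy chain, which was lower in shYthdf2. The gene left out by the filter was Mx1, an antiviral GTPase, with 0, 6 and 3 raw counts in shCtrl and 12, 2 and 9 in shYthdf2. At an unadjusted p under 0.05, 5 genes were lower, where the background over all genes tested was 10.6%, and 1 was higher, where it was 9.5%. The 5 lower genes all belonged to the MHC class I pathway (H2-D1, H2-K1, Psmb9, Tap1 and Psmb8), and the higher one was Stat2. H2-D1 alone passed with the replicate number as a block, where 1.35% of all genes did. H2-D1 and H2-K1 passed with DESeq2 (7.67% of all genes) and with a batch term for replicate 2 (22.1%), and H2-D1, H2-K1 and Stat2 passed without shYthdf2 replicate 2 (4.7%). The median log2 fold change was 0.19 over the 32 genes, -0.64 over the 8 MHC class I genes and 0.25 over the 24 others, beside 0.01 over all genes tested.

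**Figure D1:**
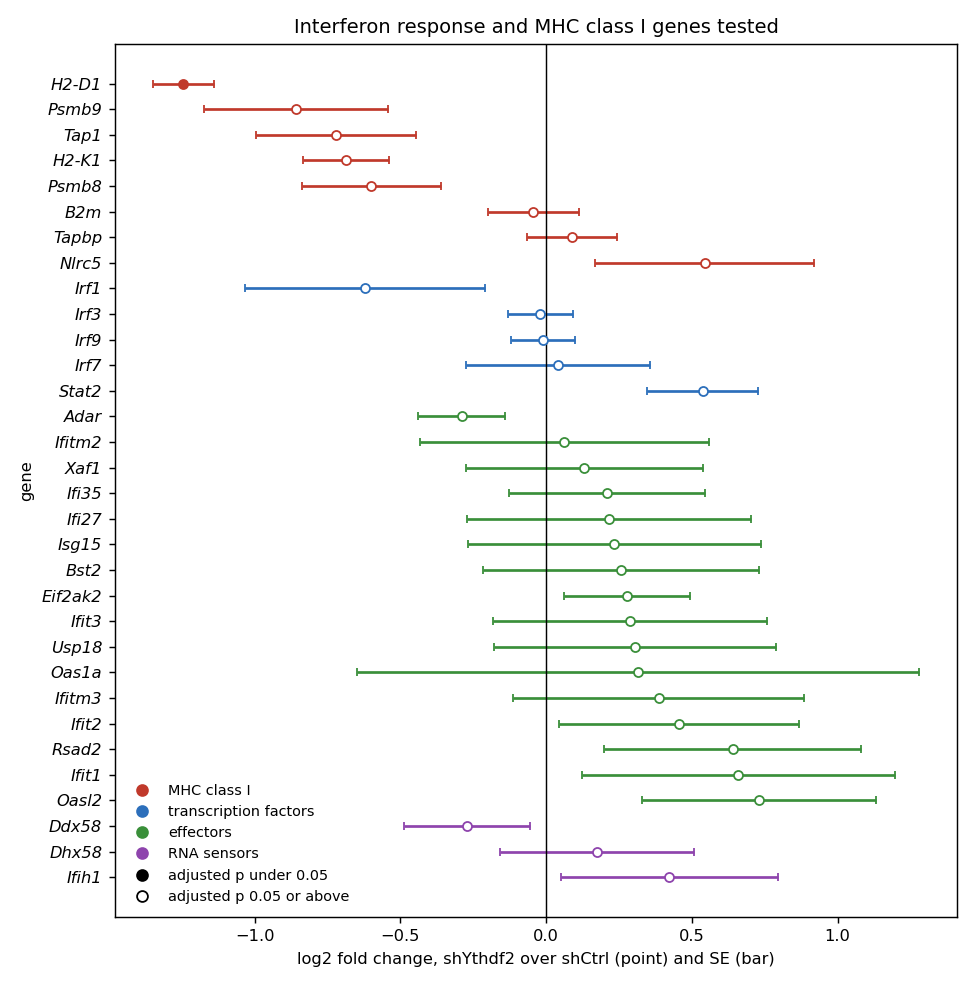
Log2 fold change of shYthdf2 over shCtrl (x axis, points) with its SE (bars) for the 32 genes tested, grouped by role (colours). H2-D1 is the filled point at -1.24, 5 of the 8 MHC class I genes lie at or below -0.60, and the effectors have wide bars, most of which cross 0.

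The levels of these genes span a wide range. Levels are given per length here, as RPKM (counts per kilobase of exon, scaled to the TMM-normalized library size), with the SD of 3 libraries. In shCtrl, B2m was highest at 57.7 ± 12.3, followed by H2-D1 at 46.1 ± 4.14, and their libraries did not overlap (50.1 to 71.9 against 41.4 to 49.1). Adar followed at 21.3 ± 3.84 and H2-K1 at 17.7 ± 0.539, and the libraries of this pair overlapped. Stat2 had 15.2 ± 0.731 and Ifitm3 had 13.8 ± 10.2. At the low end, Nlrc5, Ifih1, Xaf1 and Mx1 had 0.163, 0.151, 0.139 and 0.0423. In shYthdf2, B2m had 56.0 ± 2.0 and H2-D1 had 19.5 ± 0.870, so that the level of H2-D1 was close to those of Stat2 (22.1 ± 5.72), Ifitm3 (18.0 ± 6.64) and Adar (17.4 ± 1.35).

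**Figure D2:**
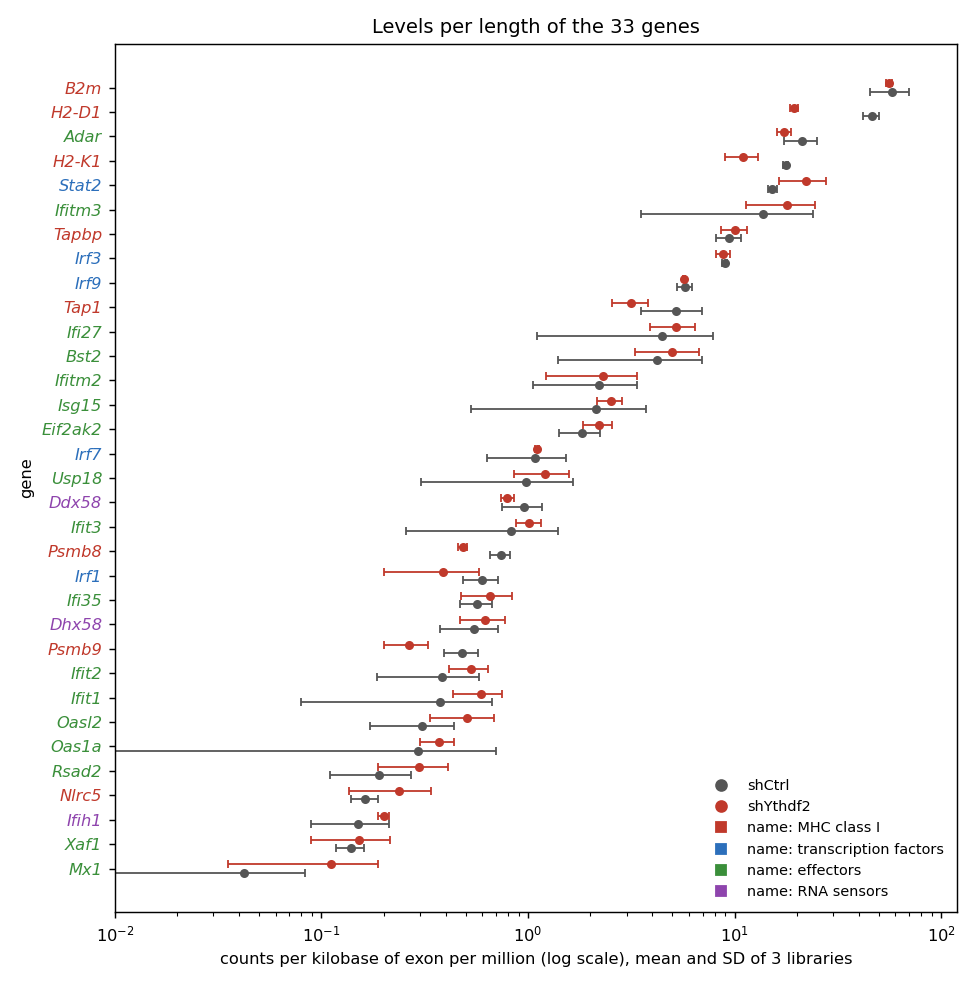
RPKM, counts per kilobase of exon scaled to the TMM-normalized library size (x axis, log scale) for the 33 genes in shCtrl (grey) and shYthdf2 (red), as the mean and SD of 3 libraries, ordered by the shCtrl mean. H2-D1 lies at 46.1 in shCtrl and 19.5 in shYthdf2, while B2m at the top differs little, and the SDs of Oas1a and Mx1 in shCtrl reach below the axis.

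H2-D1 and H2-K1 encode the classical heavy chains, which C57BL/6 mice carry as the D and K molecules of their MHC haplotype. H2-D1 (chr17:35262730-35267499, GRCm38, plus strand) had 2404, 2026 and 2339 normalized counts in shCtrl replicates 1, 2 and 4. In shYthdf2 it had 952, 909 and 995. The highest shYthdf2 library was thus below the lowest shCtrl library, and the shYthdf2 mean was 42.2% of the shCtrl mean (log2 fold change -1.24, SE 0.10, adjusted p = 0.0279). The difference within a pair was -1.34, -1.16 and -1.23 on the log2 scale in replicates 1, 2 and 4. The adjusted p was 0.00088 without shCtrl replicate 2 and 0.0235 without shYthdf2 replicate 2. It was 0.217 and 0.203 without shCtrl replicate 1 or 4, and 0.243 and 0.269 without shYthdf2 replicate 1 or 4. In those 4 fits no gene of the table passed the threshold, and the log2 fold change of H2-D1 stayed between -1.28 and -1.20.

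H2-K1 (chr17:33996017-34000347, GRCm38, minus strand) had 991, 1014 and 955 normalized counts in shCtrl and 678, 486 and 675 in shYthdf2. All shYthdf2 libraries were below all shCtrl libraries, replicate 2 most of all. The log2 fold change was -0.69 (SE 0.15, adjusted p = 0.0744), which missed the threshold. The adjusted p was 0.0333 without shCtrl replicate 2, 0.0367 without shYthdf2 replicate 2 and 0.0151 with a batch term for replicate 2. Genes of this family resemble each other, and reads that fit several copies could have been split or dropped by the authors' counting. Of the 100-base windows of the H2-D1 transcripts, 4.64% occur unchanged in another gene, while none of those of H2-K1 do.

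The promoters of these heavy chain genes are printed to show how closely they resemble each other, next to those of H2-Q6, a nonclassical heavy chain, and of B2m, the shared light chain. Sequences are from RefSeq (GRCm38.p6), 5′ to 3′ on the strand of the gene. The stretches are chr17:35262918-35263027 (plus strand) for H2-D1, chr17:34000354-34000463 (minus strand) for H2-K1, chr17:35424672-35424780 (plus strand) for H2-Q6 and chr2:122147543-122147643 (plus strand) for B2m. Capitals mark matches on either strand to a kappa B site (GGGGATT followed by CCCC), to GAANNGAAA (a short interferon-stimulated response element), to the full element (GAAA, any 2 bases, GAAA), to TGACG (the core of a cyclic AMP response element) and to CCAAT.
H2-D1: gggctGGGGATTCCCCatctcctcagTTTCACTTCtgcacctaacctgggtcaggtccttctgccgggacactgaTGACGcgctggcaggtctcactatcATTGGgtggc
H2-K1: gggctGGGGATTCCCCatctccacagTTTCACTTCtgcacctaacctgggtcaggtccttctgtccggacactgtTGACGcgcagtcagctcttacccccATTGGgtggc
H2-Q6: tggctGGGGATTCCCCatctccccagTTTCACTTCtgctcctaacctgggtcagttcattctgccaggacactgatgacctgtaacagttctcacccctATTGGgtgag
B2m: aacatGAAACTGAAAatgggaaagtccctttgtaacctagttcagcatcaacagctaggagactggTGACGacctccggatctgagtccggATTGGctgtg
The H2-D1 and H2-K1 stretches were identical at 99 of 110 positions (90%), and the H2-D1 and H2-Q6 stretches at 93 of 112 aligned positions (83%). The kappa B letters were found in 2 of the 28 listed genes with a promoter in the RefSeq table, H2-D1 and H2-K1, and in 0.0333% of all 27025 genes with one. These letters were added after the promoters had been read, so the match in the H2 genes was fixed in advance and shows no enrichment. B2m holds the full response element and no match to these exact kappa B letters in its stretch. Other forms of a kappa B site were not searched, so such a site in B2m is not excluded. A match of letters is a description of the sequence and no measure of binding.

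B2m had 833, 1173 and 817 normalized counts in shCtrl and 913, 880 and 946 in shYthdf2. The groups overlapped and the shYthdf2 mean was 97% of the shCtrl mean (log2 fold change -0.04, SE 0.16, adjusted p = 0.901). The highest library was shCtrl replicate 2, and the log2 fold change was 0.15 without it (adjusted p = 0.282). B2m therefore did not pass the threshold while the heavy chain H2-D1 did, but the difference between these genes was not tested.

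Peptide supply was described by 4 genes. Psmb8, a catalytic subunit of the immunoproteasome, had 41.7, 48.4 and 51.6 normalized counts in shCtrl and 30.3, 30.1 and 32.9 in shYthdf2. Its groups did not overlap (log2 fold change -0.60, SE 0.24, unadjusted p = 0.0381, adjusted p = 0.221). Psmb9, the neighbouring subunit gene, had 39.9, 32.9 and 27.5 in shCtrl and 13.6, 19.4 and 22.3 in shYthdf2. The groups were again separate, at raw counts of 45 or fewer per library (log2 fold change -0.86, SE 0.32, unadjusted p = 0.0282, adjusted p = 0.193). Tap1, a subunit of the peptide transporter, had 655, 337 and 636 in shCtrl and 328, 395 and 264 in shYthdf2. It was lower in shYthdf2 in replicates 1 and 4 and not in replicate 2, where the pair differed by 0.23 on the log2 scale (log2 fold change -0.72, SE 0.27, unadjusted p = 0.0323, adjusted p = 0.204). Without shCtrl replicate 2 its adjusted p was 0.0137. Psmb9 and Tap1 lie head to head on chromosome 17, and their exons overlap by 212 bases on opposite strands. Whether the counting used strand is not given in the sources used here, so reads from that overlap could not be assigned with certainty.

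Tapbp, which encodes tapasin, had 666, 729 and 554 normalized counts in shCtrl and 604, 803 and 666 in shYthdf2, and the groups overlapped (log2 fold change 0.09, SE 0.16, adjusted p = 0.787). Its exons overlap those of Zbtb22, which had up to 1384 counts, by 149 bases on the same strand. Nlrc5, a transactivator of MHC class I genes, had 24.8, 23.3 and 30.8 in shCtrl and 37.6, 22.3 and 55.2 in shYthdf2. Its levels were low and its groups overlapped (log2 fold change 0.54, SE 0.38, adjusted p = 0.462). The log2 fold change was 0.19 without shYthdf2 replicate 4 and 0.82 without shYthdf2 replicate 2.

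Summed over the 8 MHC class I genes, normalized counts were 5656, 5384 and 5410 in shCtrl and 3557, 3545 and 3655 in shYthdf2, which is 65.4% of the shCtrl mean. The groups of 4 of the 8 genes did not overlap, all of them lower in shYthdf2, and over all genes tested 13.4% were separate in that direction. None of the 32 genes was separate in the higher direction, where 12.6% of all genes were. Most of the difference in the sum came from H2-D1, whose means differed by more than those of the other 7 genes together. In a bulk culture, fewer cells of a type and less RNA per cell cannot be told apart.

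**Figure D3:**
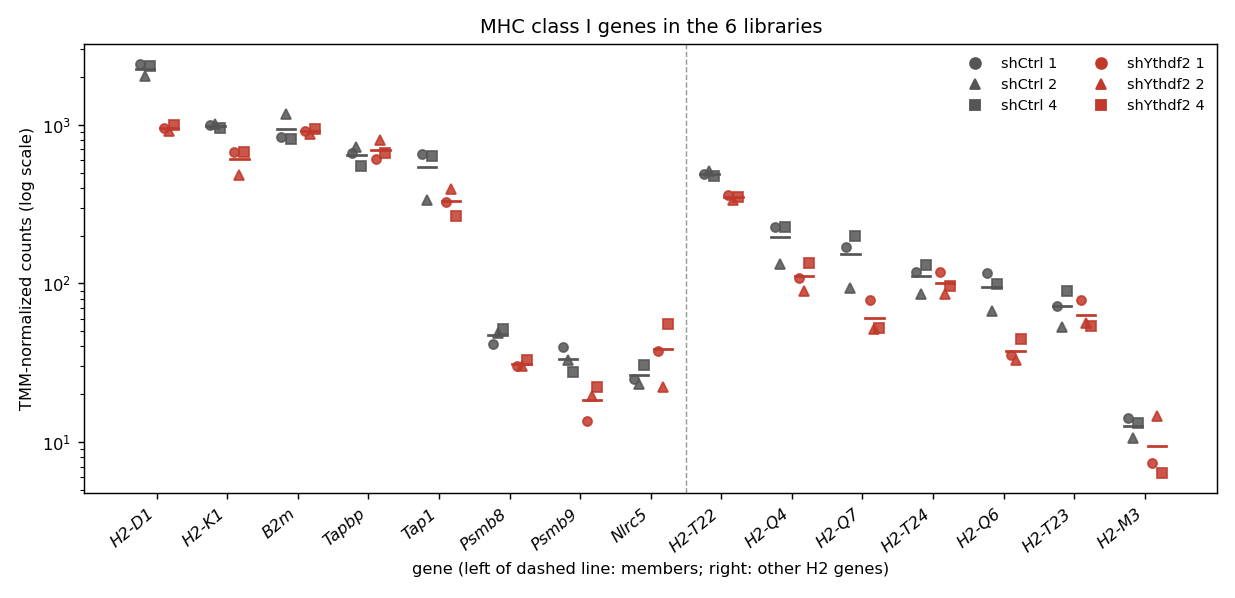
TMM-normalized counts (y axis, log scale) of the 8 MHC class I genes and of 7 further H2 genes in each library, with grey for shCtrl, red for shYthdf2, the marker shape for the replicate number and a line for the group mean. H2-D1, H2-K1, Psmb8 and Psmb9 on the left and H2-T22, H2-Q7 and H2-Q6 on the right have no overlap between groups, whereas B2m and Tapbp do.

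Further genes of antigen presentation had been listed by name besides these, and 17 of 18 passed the filter. Of the 17, none passed the adjusted threshold, 5 were lower and 0 higher at an unadjusted p under 0.05, beside 10.6% and 9.5% of all genes tested, and the median log2 fold change was -0.29. The H2 genes of both lists were grouped after their values were seen, so their count is a description. Of 10 such genes 9 were tested, and the log2 fold change of all 9 was below 0, as it was for 49.2% of all genes tested. H2-Q6 had 117, 66.8 and 98.9 normalized counts in shCtrl and 35.6, 33 and 44.6 in shYthdf2, with separate groups (log2 fold change -1.32, SE 0.28, adjusted p = 0.0748). H2-T22 had 486, 510 and 478 in shCtrl and 361, 335 and 349 in shYthdf2, also with separate groups (log2 fold change -0.50, SE 0.11, adjusted p = 0.0805). Of the 100-base windows of these genes, 10.8% and 14.2% occur in other genes, so part of their reads may come from relatives. Without H2-D1 and H2-K1, the other 8 H2 genes summed to 1204, 954 and 1240 in shCtrl and to 789, 665 and 737 in shYthdf2, 64.5% of the shCtrl mean.

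The transcription factors came next in the order of the pathway. Stat2, a partner of IRF9 in the complex formed after interferon binds, had 1664, 1808 and 1667 normalized counts in shCtrl and 2867, 1743 and 2847 in shYthdf2. It was higher in shYthdf2 in replicates 1 and 4, by 0.78 and 0.77 on the log2 scale, and differed by -0.05 in replicate 2. The groups overlapped because of this pair (log2 fold change 0.54, SE 0.19, unadjusted p = 0.0241, adjusted p = 0.179). Without shYthdf2 replicate 2 the log2 fold change was 0.74 with an adjusted p of 0.026.

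The other 4 factors passed neither criterion. Irf9, the DNA-binding partner of STAT2, had 587 ± 49.5 normalized counts in shCtrl and 582 ± 7.04 in shYthdf2 (SD, n = 3). Its exons overlap those of Rnf31, which had up to 1743 counts, by 123 bases on the same strand. Irf3, which acts directly downstream of the RNA sensors, had 584 ± 17.7 and 577 ± 46.4. Irf7, the factor that amplifies interferon production, had 77.1 ± 31.7 and 79.5 ± 1.74, and the exons of this gene overlap those of Phrf1, which had up to 2901 counts, by 45 bases on the other strand. Irf1, an activator of MHC class I and interferon target genes, had 35.5, 52.3 and 48.3 in shCtrl and 32.4, 41.7 and 13.8 in shYthdf2. It was lower in each of the 3 pairs, as were 26.9% of all genes tested, while the groups overlapped (log2 fold change -0.62, SE 0.41, adjusted p = 0.442). The log2 fold change was -0.97 without shYthdf2 replicate 2 and -0.29 without shYthdf2 replicate 4.

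The 17 effectors act against viruses or regulate the response. The promoters of Isg15, a ubiquitin-like modifier, Ifit1, a protein that binds foreign RNA, and Bst2, which tethers virus particles to the cell surface, are printed because they hold the element through which interferon acts in 2 or more overlapping or neighbouring copies. Sequences are from RefSeq (GRCm38.p6), 5′ to 3′ on the strand of the gene, at chr4:156200865-156200906 (minus strand) for Isg15, chr19:34640775-34640823 (plus strand) for Ifit1 and chr8:71537577-71537612 (minus strand) for Bst2. Capitals mark matches to the full response element (GAAA, any 2 bases, GAAA) on either strand.
Isg15: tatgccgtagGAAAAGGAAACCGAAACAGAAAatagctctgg
Ifit1: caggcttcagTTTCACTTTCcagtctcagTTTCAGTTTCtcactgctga
Bst2: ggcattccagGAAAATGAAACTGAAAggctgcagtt
The full element was found in the window from 250 bases before to 50 bases after the start in 13 of the 28 listed genes with a promoter in the table (Stat2, Ifit1, Ifit3, Isg15, Oas1a, Bst2, Ifitm3, Ifitm2, Rsad2, Eif2ak2, Ddx58, Ifih1 and B2m) and in 3.99% of all genes with one. TTCNNNGAA, the letters of a STAT site, was found in 9 of the 28 and in 9.55% of all. GAANNGAAA was found in 9 and 8.68%, TGACG in 9 and 23%, and CCAAT in 13 and 41.1%. Matches of different motifs may overlap, as the 2 forms of the response element do in the Stat2 promoter. Only the full element and TTCNNNGAA had been chosen before the promoters were read, and the other letters were added afterwards.

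Of the effectors 16 were tested, and none passed the adjusted threshold or an unadjusted p under 0.05. The log2 fold change was above 0 for 15 of the 16, beside 8751 of all 17214 genes tested. The 16 genes were measured in the same 6 libraries, so they are not independent. The median was 0.28, the range was from -0.29 (Adar) to 0.73 (Oasl2), and the smallest adjusted p was 0.321. The median was 1.02 without shCtrl replicate 2, 0.14 without shYthdf2 replicate 2 and 0.77 without both. Apart from Adar they had few counts, at most 340 in a library (Ifitm3). Oasl2, of the family that answers double-stranded RNA with oligoadenylates, had 34.6, 54.3 and 22 normalized counts in shCtrl and 42.9, 84.3 and 57.3 in shYthdf2. It was higher in shYthdf2 in each pair, as were 27% of all genes tested, while the groups overlapped (log2 fold change 0.73, SE 0.40, adjusted p = 0.352). The log2 fold change was 1.11 without shCtrl replicate 2 and 0.43 without shYthdf2 replicate 2. Ifit1 had 10.6, 35.8 and 9.89 in shCtrl and 26.1, 38.8 and 24.4 in shYthdf2 (log2 fold change 0.66, SE 0.54, adjusted p = 0.536). Its difference was 1.26 in both replicates 1 and 4 and 0.11 in replicate 2, on the log2 scale.

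Isg15 had 16.0, 57.2 and 18.7 normalized counts in shCtrl and 34.5, 41.7 and 31.8 in shYthdf2. Ifitm3, which blocks the fusion of viruses with membranes, had 102, 328 and 99.97 in shCtrl and 180, 330 and 184 in shYthdf2. Ifi27, a mitochondrial protein induced by interferon, had 69.2, 232 and 71.4 in shCtrl and 114, 183 and 136 in shYthdf2. In these 3 genes shCtrl replicate 2 lay far above the other shCtrl libraries and at or above the shYthdf2 libraries of replicates 1 and 4. The same order was seen for most effectors. In shCtrl, 16 of the 17 were highest in replicate 2, beside 44.8% of all genes tested, and in shYthdf2 12 of the 17 were, beside 44.2%. Exact values of Ifit3 and Oas1a are uncertain, since 31.7% and 40.9% of their 100-base windows occur in Ifit3b and Oas1g.

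Adar, which encodes the RNA editing enzyme ADAR1 and whose RNA is made without interferon as well, went the other way. It had 3652, 2592 and 3574 normalized counts in shCtrl and 2659, 2478 and 2893 in shYthdf2. Adar was lower in each pair, as were 26.9% of all genes tested (log2 fold change -0.29, SE 0.15, adjusted p = 0.321). Its exons overlap those of Chrnb2, a nicotinic receptor subunit with up to 3339 counts in a library, by 1365 bases on the other strand, so part of its counts may belong to Chrnb2. Chrnb2 itself had a log2 fold change of -0.0018 (SE 0.12).

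**Figure D4:**
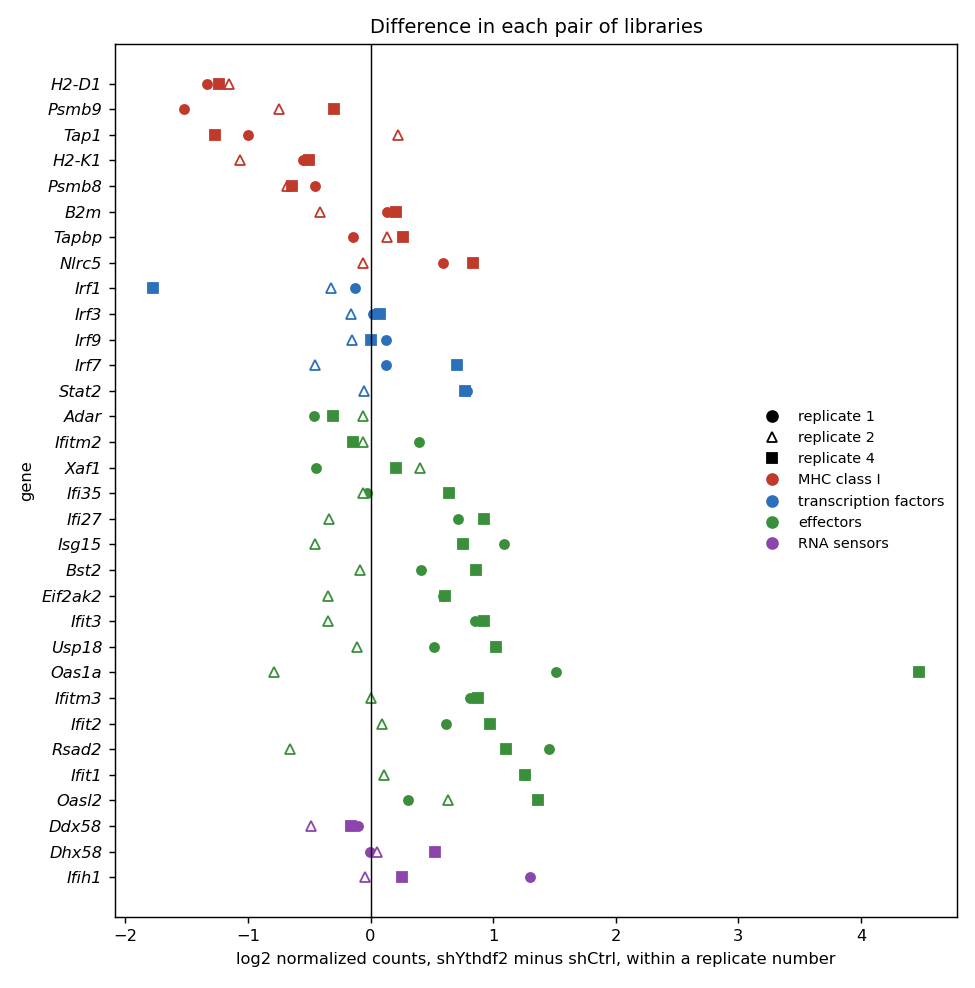
Difference in log2 normalized counts, shYthdf2 minus shCtrl, within each replicate number (x axis) for the 32 genes tested, with filled circles for replicate 1, open triangles for replicate 2, filled squares for replicate 4 and colours for roles. H2-D1, H2-K1, Psmb8 and Psmb9 lie below 0 in all 3 pairs, as 26.9% of all genes tested do. Most effectors lie above 0 in replicates 1 and 4 and near or below 0 in replicate 2.

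Pair by pair, the median difference of the 16 effectors was 0.61 in replicate 1, -0.08 in replicate 2 and 0.90 in replicate 4, on the log2 scale, beside medians of all genes tested between 0.00 and 0.01. The median of the 8 MHC class I genes was -0.50, -0.55 and -0.40. Of the 32 genes, 7 were lower and 4 higher in all 3 pairs, beside 26.9% and 27% of all genes tested. Summed without Adar, the effectors had 580, 1380 and 533 normalized counts in shCtrl and 931, 1258 and 957 in shYthdf2. The groups overlapped, with the highest library in shCtrl. With Adar, which held most of the counts, the sum was 4232.1, 3972.6 and 4106.4 in shCtrl and 3589.5, 3736.5 and 3850.5 in shYthdf2. That sum was lower in every pair, with separate groups and 90.8% of the shCtrl mean. Without shCtrl replicate 2, Ifit1 (log2 fold change 1.53, adjusted p = 0.0354), Ifitm3 (1.20, 0.0446) and Ifi27 (1.04, 0.0361) passed the threshold as higher and Adar (-0.43, 0.0205) as lower. In that fit 18.3% of all genes passed, 9.42% as higher and 8.84% as lower. Without replicate 2 in both groups, an alternative added after the data were seen, 19 of the 32 genes passed (59.4%), 14 as higher and 5 as lower, and of all genes 52.7% passed, 25.8% as higher and 27% as lower. The 5 lower genes in that fit were H2-D1, H2-K1, Tap1, Psmb9 and Adar, and 11 of the 14 higher ones were effectors. B2m was one of the 14 (log2 fold change 0.17, adjusted p = 0.027). Those p-values rest on 2 libraries a group that lie closer together than any other pair. Whether the difference in replicate 2 departs from that in replicates 1 and 4 was not tested.

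The 3 RNA sensors showed no difference past either criterion. Ddx58, which encodes RIG-I, had 128 ± 28.7 normalized counts in shCtrl and 106 ± 7.61 in shYthdf2. The difference was below 0 in each of the 3 pairs, as for 26.9% of all genes tested. Ifih1, which encodes MDA5, had 23.3 ± 9.51 and 31.1 ± 1.92, and Dhx58, the regulatory helicase of the family, had 33.9 ± 10.6 and 38.5 ± 9.29 (SD, n = 3).

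Of the interferon genes, 4 were examined. Ifnb1, Ifna4 and Ifnk had 0 counts in every library, and Ifng had 1 count in shCtrl replicate 1 and 0 elsewhere. A count of 0 in a library allows up to 3 counts there, by counting error alone. Receptors and signalling genes of the further list passed the filter in 14 of 15 cases, with 0 past the adjusted threshold and a median log2 fold change of -0.03. Ifnar1, a chain of the type I interferon receptor, had a log2 fold change of -0.05 (SE 0.09). Ifngr2, a chain of the type II interferon receptor, had 436, 535 and 469 normalized counts in shCtrl and 254, 292 and 260 in shYthdf2. Its groups were far apart (log2 fold change -0.84, SE 0.14, adjusted p = 0.0522), and with the replicate number as a block it passed the threshold (adjusted p = 0.045).

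Over the whole further list, 83 of 105 genes passed the filter, 1 passed the adjusted threshold as higher and 0 as lower, and the median log2 fold change was 0.02. At an unadjusted p under 0.05, 4 were higher, where the background was 9.5%, and 9 lower, where it was 10.6%, so the counts lay below and near the share over all genes. The gene past the threshold was Traf3, an adaptor between RNA sensors and the kinases that activate IRF3. It had 1615, 1746 and 1570 normalized counts in shCtrl and 2666, 2715 and 2509 in shYthdf2. Traf3 was higher in every pair, as were 27% of all genes tested (log2 fold change 0.68, SE 0.09, adjusted p = 0.0447). Its adjusted p was 0.258 and 0.241 without shCtrl replicate 1 or 4, 0.286 and 0.269 without shYthdf2 replicate 1 or 4, and 0.0528 with limma-voom. Irf2bp2, a cofactor of IRF2, had 3718, 1658 and 3388 in shCtrl and 968, 1400 and 1019 in shYthdf2, so that the pair of replicate 2 differed least (log2 fold change -1.37, SE 0.30, adjusted p = 0.0777). Ifi203, of a family of interferon-inducible nuclear proteins, had 1485, 1665 and 1565 in shCtrl and 2725, 1931 and 2668 in shYthdf2, with separate groups (log2 fold change 0.64, SE 0.15, adjusted p = 0.0856).

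Markers of the cells that the culture could hold were summed in the same libraries. The 12 granule cell markers had 218520 to 221400 normalized counts in shCtrl and 200720 to 218420 in shYthdf2. Zic1 and Reln made up much of that sum, and the single markers differed in direction. Of the 12, 4 were lower at an unadjusted p under 0.05 (beside 10.6% of all genes), 0 were higher and 0 passed the adjusted threshold. These were Barhl1 (log2 fold change -0.61, adjusted p = 0.0651), Cbln1 (-0.64, 0.14), Cntn2 (-0.48, 0.158) and Neurod1 (-0.32, 0.124), and none of them overlapped between groups. Reln (0.27) and Rbfox3 (0.05) were separate in the higher direction. Cbln3 (0.81), Etv1 (0.53) and Gabra6 (0.25) were higher in each of the 3 pairs, as were 27% of all genes tested, while their groups overlapped. The median log2 fold change of the 12 was 0.02. The part of these cells in the MHC class I levels was not tested. The 17 markers of microglia and macrophages, cells that express MHC class I and interferon-induced genes, had 622, 2119 and 577 in shCtrl and 2541, 940 and 2646 in shYthdf2. Their sum was thus higher in shYthdf2 in replicates 1 and 4 and lower in replicate 2. Tmem119 differed from the sum in replicate 2. It was higher in every pair (1.11, 1.71 and 1.87 on the log2 scale), as were 27% of all genes tested. P2ry12, Trem2 and Mrc1 of this list stayed under 10 counts in every library, and 14 of the 17 were tested, with 0 past the adjusted threshold and a median log2 fold change of 0.87. The 10 endothelial markers had 194 to 315 in shCtrl and 351 to 566 in shYthdf2, with Cldn5 and Ly6c1 under 10 counts throughout, and the 7 lymphocyte markers summed to 37.3 or less. The MHC class I sum was lower in shYthdf2 in all 3 pairs. The endothelial sum was higher in all 3 and the microglial sum in 2. In shYthdf2 replicate 2, Cdh5 alone held 276 of the 566 endothelial counts. The part of microglial and endothelial cells in the MHC class I levels was not tested either.

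Summed markers of 3 further cell types moved with the effectors in shCtrl. Replicate 2 of shCtrl had 3.5 times the mean of replicates 1 and 4 in the oligodendrocyte lineage markers, 2.81 times in the markers of mural cells and fibroblasts and 2.26 times in those of astrocytes and Bergmann glia, beside 2.48 times in the effectors without Adar. In shYthdf2 the same ratios were 1.29, 2.56 and 0.925, beside 1.33 for the effectors. The log2 difference of the sums, shYthdf2 minus shCtrl, is given for replicates 1, 2 and 4. It was 1.38, -0.01 and 1.48 for the oligodendrocyte lineage and 1.10, -0.20 and 1.07 for astrocytes and Bergmann glia. For mural cells and fibroblasts it was 0.42, 0.31 and 0.46, beside 0.68, -0.13 and 0.85 for the effectors without Adar. Single markers did not all follow their sums. Sox9, of the astrocyte list, had 281, 235 and 274 normalized counts in shCtrl and was lowest in replicate 2. Its pair differences were -0.09, 0.29 and -0.07, and those of Gja1 were -0.18, 0.12 and -0.23. The granule cell markers Cbln3 (290, 1810.5 and 276) and Gabra6 (432, 1209 and 408) were also highest in shCtrl replicate 2. The part of any of these cell types in the levels of the effectors was not tested.

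**Figure D5:**
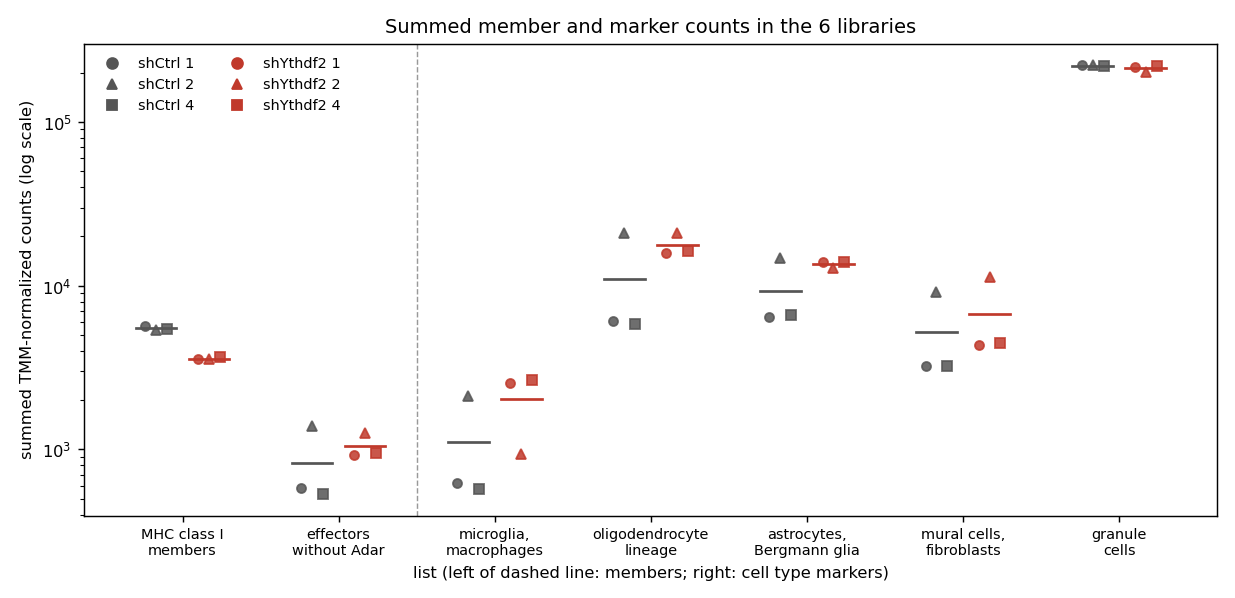
Summed TMM-normalized counts (y axis, log scale) of the MHC class I genes, of the effectors without Adar and of 5 lists of cell type markers in each library, with grey for shCtrl, red for shYthdf2, the marker shape for the replicate number and a line for the group mean. The MHC class I sum is lower in every shYthdf2 library (3545 to 3655 against 5384 to 5656), while the effector sum and the glial and mural sums are high in shCtrl replicate 2.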

How the data were processed

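RNA-seq libraries of cultured GCs (3 shYthdf2, 3 shCtrl) were analysed from deposited counts, which are whole reads per gene that the authors did not normalize. By the paper's methods, the authors mapped with HISAT and TopHat2 to GRCm38 and used HTSeq for counting. The submitters' processing notes name Bowtie 0.12.2 and mm9 instead, and the kit named in the labels also differs from that in the paper. Neither source says whether strand was used. Of the 53421 genes, 785 were new genes outside the annotation, and 52489 matched a symbol in GENCODE M21 (GRCm38). All 33 genes matched 1 row each.

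Groups were taken from the library names and never from values. The test was the quasi-likelihood test of edgeR 4.0.16 (R 4.3.3) after filterByExpr (minimum count 10, minimum total 15) and TMM normalization, and p-values were adjusted over 17214 genes by the Benjamini-Hochberg method. The filter kept 99.8% of counts. SEs are the absolute log2 fold change over the square root of F. Normalized counts are TMM-normalized counts at the mean library size, and pair differences used a pseudocount of 0.5. Library depth limits genes with few counts, and the floor of 3 counts covers counting error only. Alternatives were RLE size factors, library size alone, DESeq2 1.42.0, limma-voom (limma 3.58.1), no filter, a minimum of 10 counts for every library, the replicate number as a block, a batch term for replicate 2, each library left out, and both replicate 2 libraries left out (added after the data were seen).

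Deviations from group means of libraries with the same number correlated by 0.251, 0.362 and 0.291 (replicates 1, 2 and 4). Deviations sum to 0 within a group, so a shared offset of replicate 2 can by itself raise all 3 values. They therefore cannot show that replicates 1 or 4 were paired. The chi-square per gene of shCtrl replicate 1 was 52.6 with shYthdf2 replicate 1 and 51.6 with shYthdf2 replicate 4. Pairs were formed from the numbers in the library names, and the reported fit holds no term for them. Scripts were tested on simulated data. Promoters (250 bases before to 50 after a start) were searched in Python 3.11.15. The 33 genes, the lists and the groupings were chosen with earlier results of these data known. The genes named were the 33, the further genes with an adjusted p under 0.05, and the 6 further genes with the smallest p. Further genes were receptors and signalling genes, interferon genes, transcription factors, adaptors and kinases of sensing, effectors, and genes of antigen presentation. Others were named after their values were seen.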

Additional observations from a re-analysis of the deposited data

How the results depend on the processing

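The 15 alternatives gave 567 values for 38 named genes, of which 474 kept their direction and their side of the threshold, 56 passed it where the reported fit did not (22 genes), 9 no longer passed it (H2-D1 and Traf3) and 28 changed sign (13 genes). The cause of these changes was not tested. Of all genes, 42 were higher and 62 lower at an adjusted p under 0.05. The numbers were 538 and 782 with DESeq2, 7 and 17 with limma-voom, 241 and 398 without a filter, 91 and 141 with the replicate block, 1795 and 2004 with a batch term for replicate 2, and 4490 and 4696 without replicate 2 in both groups. With 1 library left out they ranged from 0 to 1671 and from 0 to 1568. The scaling alternatives and the stricter filter stayed within 1.5 times, and with library size alone the split turned to 61 higher and 47 lower.

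Of the 33 genes, 0 were higher and 1 lower. The number lower was 2 with DESeq2, without a filter and with the batch term, and 14 were higher and 5 lower without replicate 2 in both groups. With 1 library left out, 0 to 3 were higher and 0 to 4 lower. Leaving out shCtrl replicate 2 gave 3 and 4, leaving out shYthdf2 replicate 2 gave 1 and 2, and leaving out any other library gave 0 and 0. At an unadjusted p under 0.05, where 1 was higher and 5 lower, 3 were higher with the replicate block, 4 with the batch term and 15 without replicate 2 in both groups, and 3 were lower with DESeq2. With 1 library left out, 0 to 12 were higher and 2 to 5 lower, and the median log2 fold change ranged from -0.02 to 0.43.

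Of the further genes, 1 was higher and 0 lower at an adjusted p under 0.05. They numbered 3 and 5 with DESeq2, 2 and 4 without a filter, 5 and 8 with the batch term, and 25 and 17 without replicate 2 in both groups. None was higher with limma-voom (0), and 1 was lower with the stricter filter and with the replicate block. With 1 library left out, 0 to 10 were higher and 0 to 8 lower. At an unadjusted p under 0.05, where 4 were higher and 9 lower, 7 were higher with the replicate block, 8 with the batch term and 31 without replicate 2 in both groups, where 17 were lower. With 1 library left out, 4 to 19 were higher and 5 to 10 lower. Apart from Ifngr2 and these counts, the replicate block changed no call among the named genes.

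Log2 fold changes that changed sign are given here. With library size alone, Irf3 had 0.016 and Irf9 0.025, and Irf9 had 0.0016 with the stricter filter. Without replicate 2 in both groups, Irf3 had 0.039, Irf9 0.060, Xaf1 -0.10 and B2m 0.17. With 1 library left out, the range was -0.062 to 0.043 for Irf3, -0.22 to 0.39 for Irf7, -0.073 to 0.055 for Irf9, -0.087 to 1.06 for Isg15, -0.24 to 2.40 for Oas1a, -0.064 to 0.95 for Bst2, -0.32 to 0.56 for Ifitm2, -0.010 to 1.03 for Usp18, -0.23 to 0.38 for Xaf1, -0.082 to 1.04 for Ifi27, -0.0041 to 0.39 for Ifi35, -0.036 to 0.18 for Tapbp and -0.14 to 0.15 for B2m. The effectors except Adar had few counts, which limits what these libraries can show of them.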
